A study of Mus musculus with 28 samples.

Results

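The 30 genes described here mark the oligodendrocyte lineage and the myelin that its mature cells make. They comprise 13 genes of myelin membrane and structural proteins, 6 of enzymes and other products of mature oligodendrocytes, and 5 of transcription factors. The other 6 are receptors, not all of them of precursors, or markers of precursors or newly formed cells. The genes were picked by name and matched by symbol to the Ensembl genes of the deposited count table, where they are 30 of 50686 genes. All 30 were among the 16735 genes with enough counts to be tested.

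The tissue was dorsal hippocampus, dissected from C57Bl6 males, and its RNA was sequenced in 28 libraries that fall into 6 groups. Mice of 5 groups underwent auditory fear conditioning, the pairing of a tone with a shock, combined with Cort (n = 5), RU486 (n = 5), C108 (n = 5), C118 (n = 5) or Vehicle (n = 4). Mice of the Basal group (n = 4) had neither conditioning nor treatment. The 4 agents are ligands of the glucocorticoid receptor. Cort commonly stands for corticosterone, the principal glucocorticoid hormone of rodents. RU486 is mifepristone, which blocks this receptor and the progesterone receptor. C108 and C118 are given by code name. Age, dose, and the times of treatment and dissection are not stated in the sources used here, so whether the agents were compared at matched doses is unknown. Each conditioned group differs from Basal both in conditioning and in being given Vehicle or a ligand, and these cannot be told apart in a comparison with Basal. The labels do not say whether each library came from a separate mouse, so p-values measure the spread between these libraries.

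Oligodendrocytes wrap axons of the central nervous system in myelin, a stack of membrane rich in galactolipids, cholesterol and a small set of abundant proteins. They arise from dividing precursors that carry the receptor for platelet-derived growth factor and pass through a short-lived, newly formed stage before they make myelin. The transcription factors Olig2 and Sox10 act through the whole lineage, and Myrf switches on myelin genes as the cells mature.

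Gene counts summed to between 16.2 M and 20.3 M in a library, where M is 1e+06. Levels are given in CPM, counts per 1e+06 of the library total after TMM scaling, and libraries are called by group and sample number, with values listed in rising sample number. Fkbp5, a cochaperone gene induced by the glucocorticoid receptor, was at 159 to 180 CPM in Cort, 101 to 122 in RU486, 110 to 146 in C118, 119 to 150 in C108, 115 to 144 in Vehicle and 59.9 to 80.6 in Basal libraries, so each group lay above Basal without overlap. Mbp, the gene of myelin basic protein, was at 982 to 2590 CPM across all libraries. Genes were called at a Benjamini-Hochberg adjusted p under 0.05 in a quasi-likelihood fit of edgeR to all 28 libraries, with adjustment over all 16735 tested genes. Differences between groups are log2 fold changes with their standard error (SE).

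Relative to Basal mice, part of the oligodendrocyte set was lower in Cort, C108 and Vehicle mice, with the most members called in Cort. In Cort against Basal, 13 of 30 members fell and 0 rose, where 6.27% of all tested genes were called in either direction (3.43% lower and 2.84% higher). The 13 were Opalin, Gjc3, Ermn and Tmem88b of the myelin proteins, Ugt8a, Fa2h, Aspa, Enpp6 and Ppp1r14a of the enzymes and other mature products, the transcription factors Sox10 and Nkx6-2, and the receptors Gpr37 and Lpar1. In C108 against Basal, 7 of 30 fell and 0 rose, where 6.04% of all tested genes were called (3.24% lower and 2.79% higher). These 7, Opalin, Gjc3, Tmem88b, Ugt8a, Enpp6, Ppp1r14a and Gpr37, are all among the 13. In Vehicle against Basal, 3 of 30 fell, Opalin, Sox10 and Gpr37, where 4.11% of all tested genes were called (2.47% lower and 1.64% higher). In C118 against Basal only Opalin fell, 1 of 30, where 3.87% of all tested genes were called (2.13% lower and 1.74% higher), so the members' count there is near that of genes in general. In RU486 against Basal edgeR called 0 of 30, where 5.45% of all tested genes were called (2.84% lower and 2.61% higher). An unadjusted p under 0.05 was found for 9 of the 30 members and for 3689 of the 16735 tested genes. Both DESeq2 and limma-voom called 1 member there, Opalin.

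The direction was shared by more members than were called. The log2 fold change was negative for 29 of 30 members in Cort against Basal, with a median of -0.40, and for 29 of 30 in C108 against Basal, with a median of -0.43. It was negative for 24 of 30 in RU486, with a median of -0.21, for 24 of 30 in C118, with a median of -0.20, and for 22 of 30 in Vehicle, with a median of -0.27. The median over all tested genes lay between 0.00 and 0.01 in these 5 comparisons. They share the same 4 Basal libraries, so their values for a member are not independent of each other. Members also varied together between libraries, so the number that share a direction is not a count of independent results. In bulk tissue, fewer oligodendrocytes and less RNA per oligodendrocyte cannot be told apart.

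**Figure D1:**
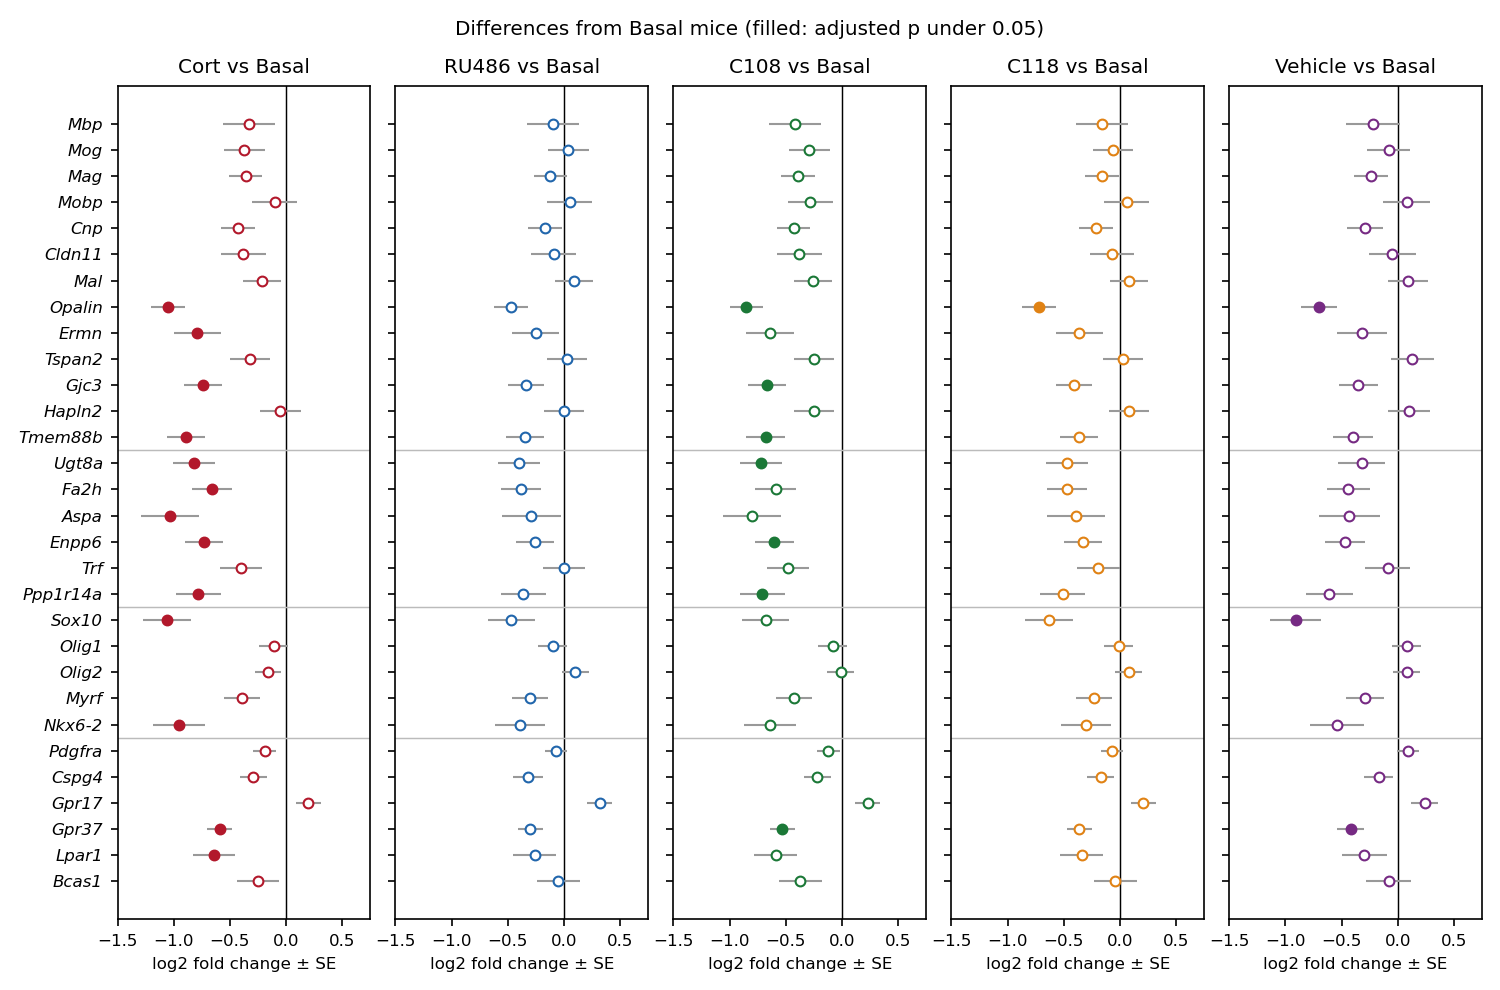
Log2 fold change with its SE (x axis) of each member (y axis, ordered by role, grey lines between roles) against Basal, with 1 panel per group; filled points are called at an adjusted p under 0.05. Filled points lie left of 0 in every panel, with 13 in Cort, 7 in C108, 3 in Vehicle, 1 in C118 and 0 in RU486.

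The members spanned a wide range of levels. Per kilobase of exon, Mbp, which encodes the myelin basic protein that holds the cytoplasmic faces of myelin together, was the highest at 218 CPM per kb over the 28 libraries. It was followed by Mal at 127, Cnp at 104, Mobp at 103 and Cldn11 at 93.4 CPM per kb. The lowest was the precursor gene Cspg4 at 1.03 CPM per kb. The 13 members called in Cort against Basal lay in the lower part of this order, between rank 11, Tmem88b at 19 CPM per kb, and rank 29, Enpp6 at 1.89 CPM per kb. None of the 10 most abundant members was called in the fit to all libraries. Against Basal, Cnp and Mag were called in Cort when Cort 4 was left out. In C108, Cnp was called without C108 21, and Mag when only the groups compared were fitted.

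Opalin, which encodes a transmembrane glycoprotein of central myelin, had the lowest p of the 30 members in each of the 5 comparisons with Basal. It stood at 17.2, 13.7, 15.6, 19.2 and 17.5 CPM in the Cort libraries, against 40.7, 28.2, 33.7 and 35.8 CPM in the Basal libraries. C108 libraries had 18.6, 24.6, 20.5, 15.7 and 16.9 CPM, C118 libraries 22, 21.7, 26.5, 18.2 and 16.8 CPM and Vehicle libraries 22.9, 23.6, 21.2 and 17.6 CPM. All libraries of these 4 groups were below the lowest Basal library. RU486 libraries had 19.7, 29.5, 18.7, 26.4 and 30.1 CPM, of which 3 were below every Basal library and RU486 12 and RU486 32 were not. Opalin differed on the log2 scale by -1.05 ± 0.15 in Cort (adjusted p = 4.2e-05), -0.85 ± 0.15 in C108 (adjusted p = 0.00129), -0.72 ± 0.15 in C118 (adjusted p = 0.00568) and -0.70 ± 0.16 in Vehicle (adjusted p = 0.00926). In RU486 it was -0.47 ± 0.15, which was not called (adjusted p = 0.0583). The Vehicle call was lost without Basal 1 (adjusted p = 0.0508).

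Tmem88b, a transmembrane protein gene, had 63.3, 38.7, 46.8, 46.3 and 45.7 CPM in Cort libraries, all below the 109, 77.6, 95 and 76.2 CPM of the Basal libraries. C108 libraries had 50.7, 76.5, 53.4, 48.9 and 48.8 CPM, and C108 21 alone of them reached the Basal range. Its log2 fold change was -0.89 ± 0.17 in Cort (adjusted p = 0.000986) and -0.68 ± 0.17 in C108 (adjusted p = 0.0151). The C108 call was lost without Basal 1 (adjusted p = 0.0905) or Basal 14 (adjusted p = 0.0565). RU486 libraries had 69.1, 70.9, 55.6, 72.7 and 82.1 CPM, C118 libraries 79, 73.9, 86.1, 54.1 and 55 CPM and Vehicle libraries 84.7, 73.9, 60.6 and 51.2 CPM. These 3 groups each held at least 1 library in the Basal range and were not called.

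Gjc3 encodes a connexin, a gap junction protein of myelinating glia. Cort libraries had 52.9, 39.2, 45, 43.5 and 34.3 CPM and C108 libraries 46.1, 65.5, 40.6, 36.2 and 36.4 CPM, against 83.9, 67.7, 71.3 and 63.6 CPM in Basal libraries. All Cort libraries were below the lowest Basal library, as were the C108 libraries apart from C108 21. Gjc3 differed on the log2 scale by -0.74 ± 0.17 in Cort (adjusted p = 0.00545) and -0.67 ± 0.17 in C108 (adjusted p = 0.0156). The C108 call was lost without Basal 1, Basal 14 or C108 39 (adjusted p = 0.0841, 0.0502 and 0.0554). RU486 libraries had 55.5, 62.6, 42.8, 54.2 and 67.2 CPM, C118 libraries 63.8, 56.7, 64.5, 44.5 and 39.3 CPM and Vehicle libraries 62.4, 61.7, 52 and 48.2 CPM. The 4 Vehicle libraries were all below the lowest Basal library, but the difference of -0.35 ± 0.17 was not called (adjusted p = 0.284).

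Ermn encodes ermin, a protein of the oligodendrocyte cytoskeleton. Its level was 65.6, 33.3, 52.2, 53.1 and 41 CPM in Cort libraries, against 96.3, 74.6, 91.2 and 77.3 CPM in Basal libraries. The groups did not overlap, and the log2 fold change was -0.79 ± 0.21 (adjusted p = 0.0236). This call was lost without Basal 1, Basal 14, Cort 11 or Cort 36 (adjusted p from 0.0656 to 0.0907). C108 libraries ranged widely, at 42.2, 90.4, 54.3, 47.4 and 38 CPM, and their difference of -0.64 ± 0.21 was not called (adjusted p = 0.0734). RU486 libraries had 67.6, 64.2, 53.2, 74.5 and 96.3 CPM, C118 libraries 74, 68.1, 82.4, 60.1 and 46.9 CPM and Vehicle libraries 71.3, 77.6, 60 and 62.9 CPM, each group with 1 library in the Basal range.

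The other 9 genes of myelin proteins were not called in any comparison in the fit to all libraries. Mbp had 2590, 1500, 1540, 1650 and 1200 CPM in Cort libraries and 1730, 2420, 1540, 1280 and 982 CPM in C108 libraries, against 2590, 1980, 2290 and 1660 CPM in Basal libraries. Cort 4, C108 8 and C108 21 lay within the Basal range, and Cort 4 and C108 21 were the highest libraries of their groups. RU486 libraries had 1910, 2080, 1790, 1990 and 2170 CPM, C118 libraries 2230, 2260, 2240, 1610 and 1230 CPM and Vehicle libraries 2340, 1860, 1860 and 1240 CPM. The log2 fold change of Mbp was -0.33 ± 0.23 in Cort (adjusted p = 0.453, 95% interval -0.80 to 0.14) and -0.42 ± 0.23 in C108 (adjusted p = 0.279, 95% interval -0.89 to 0.04).

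Mog, the gene of a glycoprotein on the outer face of the myelin sheath, had 102, 65.3, 72.7, 90.1 and 71.6 CPM in Cort libraries and 71.4, 131, 84.6, 72.4 and 67.6 CPM in C108 libraries, against 117, 96.4, 99.6 and 103 CPM in Basal libraries. Again Cort 4 and C108 21 were the libraries that reached the Basal range. RU486 libraries had 93.5, 117, 85, 109 and 130 CPM, C118 libraries 73.8 to 131 CPM and Vehicle libraries 105, 109, 98.4 and 81.5 CPM. The difference of Mog was -0.37 ± 0.18 in Cort (adjusted p = 0.24). Of the remaining 7 genes, Cnp, the gene of a phosphodiesterase of non-compact myelin, came closest to a call, at -0.43 ± 0.15 in Cort (adjusted p = 0.0818) and -0.43 ± 0.15 in C108 (adjusted p = 0.0798). Mag, the myelin-associated glycoprotein that faces the axon, differed by -0.36 ± 0.15 in Cort (adjusted p = 0.156). Cldn11, a tight junction protein of myelin, differed by -0.38 ± 0.20 in Cort. Tspan2, a tetraspanin, differed by -0.32 ± 0.18 in Cort and 0.13 ± 0.19 in Vehicle. The proteolipid gene Mal differed by -0.21 ± 0.17 in Cort. Mobp, which encodes a basic protein of compact myelin, and Hapln2, which encodes a link protein at nodes of Ranvier, were nearest to 0, at -0.10 ± 0.20 and -0.05 ± 0.18 in Cort.

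**Figure D2:**
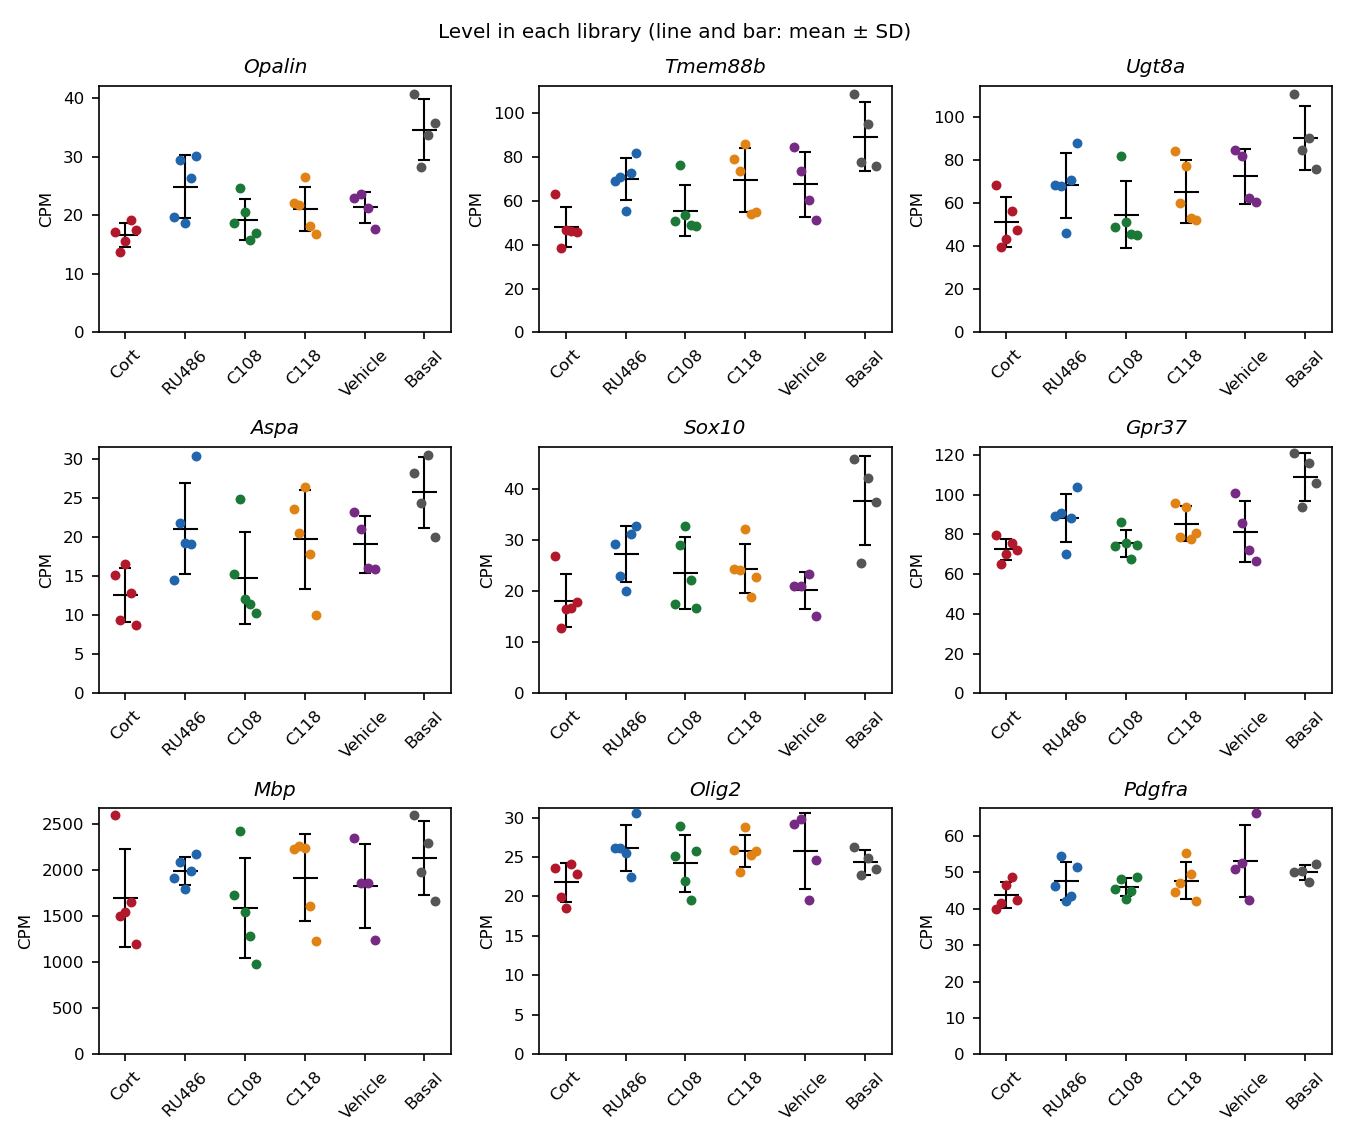
Level in CPM (y axis, from 0) of 9 members in each library (points), by group (x axis), with the group mean and SD as a line and bar. Cort libraries lie below every Basal library for Opalin, Tmem88b, Ugt8a, Aspa and Gpr37, whereas for Mbp, Olig2 and Pdgfra the groups overlap.

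Enzymes and other products of mature oligodendrocytes were the role with the highest share of called members in Cort against Basal, 5 of 6, where 6.27% of all tested genes were called. Their median log2 fold change was -0.76 in Cort and -0.65 in C108, where 3 of 6 members and 6.04% of all tested genes were called. Ugt8a, the galactosyltransferase that makes galactosylceramide, a main lipid of myelin, had 68.6, 39.8, 43.5, 56.6 and 47.5 CPM in Cort libraries and 49.1, 82.2, 51.3, 45.6 and 45.4 CPM in C108 libraries, against 111, 84.6, 90.3 and 76.1 CPM in Basal libraries. All Cort libraries and the C108 libraries apart from C108 21 were below the lowest Basal library. The log2 fold change of Ugt8a was -0.82 ± 0.19 in Cort (adjusted p = 0.0091) and -0.72 ± 0.19 in C108 (adjusted p = 0.0269). The Cort call was lost without Basal 1 (adjusted p = 0.0558), and the C108 call without Basal 1, Basal 14, C108 26, C108 34 or C108 39 (adjusted p from 0.0642 to 0.131). RU486 libraries had 68.5, 68.1, 46, 71.1 and 88.3 CPM, C118 libraries 84.5, 60.1, 77.3, 53.4 and 52.1 CPM and Vehicle libraries 84.8, 82.2, 62.5 and 60.6 CPM.

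Fa2h, the hydroxylase that adds the hydroxyl group of these galactolipids' fatty acids, had 50.9, 25, 33.3, 34.6 and 33.7 CPM in Cort libraries, against 66.7, 50.3, 57 and 50.4 CPM in Basal libraries. Cort 4 was within the Basal range and the other Cort libraries were below it, for a log2 fold change of -0.66 ± 0.18 (adjusted p = 0.0274). The call was lost without Basal 1, Basal 14, Cort 11, Cort 17, Cort 30 or Cort 36 (adjusted p from 0.0541 to 0.125). C108 libraries had 32.1, 49.5, 42.5, 30.4 and 32.3 CPM and C118 libraries 47.3, 42, 46.6, 31.4 and 35.7 CPM, all below the lowest Basal library. The differences of -0.59 ± 0.18 in C108 (adjusted p = 0.0548) and -0.47 ± 0.18 in C118 (adjusted p = 0.153) were not called. RU486 libraries had 46.1, 40.6, 34, 44.8 and 50.7 CPM and Vehicle libraries 54.5, 44.5, 37.9 and 28.4 CPM.

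Aspa encodes aspartoacylase, which releases acetate from N-acetylaspartate and is mutated in Canavan disease of humans. Cort libraries had 15.2, 9.42, 16.6, 12.9 and 8.75 CPM, all below the 28.2, 24.4, 30.5 and 20.1 CPM of the Basal libraries. Its log2 fold change in Cort, -1.03 ± 0.26 (adjusted p = 0.0152), was lost as a call without Basal 1 (adjusted p = 0.0533) or Basal 14 (adjusted p = 0.0705). C108 libraries had 15.3, 24.9, 12.1, 11.5 and 10.3 CPM, with a difference of -0.80 ± 0.26 that was not called (adjusted p = 0.0665). RU486 libraries had 14.6, 21.9, 19.3, 19.2 and 30.4 CPM, C118 libraries 23.7, 20.6, 26.5, 17.9 and 9.99 CPM and Vehicle libraries 23.3, 21.1, 16.1 and 15.9 CPM. In each of these groups some libraries were inside the Basal range.

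Enpp6, a choline-specific phosphodiesterase placed here with the enzymes although newly forming oligodendrocytes already carry it, had 11.7, 7.78, 9.34, 9.98 and 8.95 CPM in Cort libraries and 11.1, 14.6, 9.13, 7.61 and 10.1 CPM in C108 libraries, against 18.9, 16.5, 13.3 and 14.9 CPM in Basal libraries. Cort libraries were all below Basal, and C108 21 was the one C108 library that was not. Enpp6 differed on the log2 scale by -0.73 ± 0.17 in Cort (adjusted p = 0.0081), a call lost without Basal 1 (adjusted p = 0.0515). The difference was -0.60 ± 0.17 in C108 (adjusted p = 0.0377), a call lost without any 1 of the 4 Basal libraries or without C108 26, C108 34 or C108 39 (adjusted p from 0.0526 to 0.17). Vehicle libraries had 12.1, 12.6, 9.26 and 11.7 CPM, all below Basal as well, with a difference of -0.47 ± 0.18 that was not called (adjusted p = 0.149). RU486 libraries had 14.4, 14.9, 8.67, 12.6 and 15.7 CPM and C118 libraries 15.6, 12.7, 14.7, 10.6 and 9.49 CPM.

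Ppp1r14a, an inhibitor of myosin phosphatase, had 8.03, 4.5, 4.08, 6.92 and 7.36 CPM in Cort libraries and 7.01, 8.16, 7.06, 4.57 and 5.74 CPM in C108 libraries, against 11.3, 8.93, 13.6 and 8.73 CPM in Basal libraries. Neither group overlapped Basal. Ppp1r14a differed on the log2 scale by -0.78 ± 0.20 in Cort (adjusted p = 0.0155) and -0.71 ± 0.20 in C108 (adjusted p = 0.034). The Cort call was lost without Basal 1, Basal 14 or Cort 11 (adjusted p from 0.0518 to 0.105), and the C108 call without Basal 1, Basal 14, C108 26, C108 34 or C108 39 (adjusted p from 0.0554 to 0.161). RU486 libraries had 8.48, 6.99, 6.91, 8.7 and 10.3 CPM, C118 libraries 7.6, 6.6, 9.84, 6.55 and 6.63 CPM and Vehicle libraries 9.6, 7.13, 6.13 and 5.07 CPM. In Vehicle the difference was -0.61 ± 0.21, which was not called (adjusted p = 0.107). Trf, the iron carrier transferrin, averaged 7.37 ± 2.11 CPM in Cort (SD, n = 5) and 9.73 ± 0.965 CPM in Basal (SD, n = 4) and was not called. It shares 63.5% of its exon bases on the same strand with the predicted gene Gm20425, so reads of the 2 could not be assigned to one of them where they overlap.

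Among the transcription factors, Sox10 and Nkx6-2 fell in Cort against Basal and the other 3 were not called. Sox10, which is needed for oligodendrocytes to mature, had 26.9, 12.8, 16.5, 16.7 and 17.8 CPM in Cort libraries and 21, 21, 23.4 and 15.1 CPM in Vehicle libraries, against 45.8, 25.6, 42.1 and 37.4 CPM in Basal libraries. All Vehicle libraries, and all Cort libraries apart from Cort 4, were below the lowest Basal library. Sox10 differed on the log2 scale by -1.06 ± 0.21 in Cort (adjusted p = 0.00231), and that call held without each library in turn. In Vehicle it was -0.91 ± 0.23 (adjusted p = 0.0202), a call lost without Basal 1, Basal 14 or Vehicle 29 (adjusted p = 0.0819, 0.0805 and 0.0802). RU486 libraries had 29.2, 22.9, 20, 31.2 and 32.8 CPM, C108 libraries 17.5, 29, 32.7, 22.2 and 16.7 CPM and C118 libraries 24.3, 24.1, 32.1, 18.8 and 22.8 CPM. The Sox10 differences of -0.47 ± 0.21 in RU486, -0.68 ± 0.21 in C108 and -0.63 ± 0.21 in C118 were not called (adjusted p = 0.188, 0.0569 and 0.0932).

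Nkx6-2, a homeodomain factor of myelinating oligodendrocytes, was at 4.91, 2.06, 2.89, 2.97 and 2.81 CPM in Cort libraries, against 6.35, 4.16, 7.36 and 6.32 CPM in Basal libraries. Cort 4 alone reached the Basal range, and the log2 fold change was -0.95 ± 0.23 (adjusted p = 0.00866), lost without Basal 14 (adjusted p = 0.0561). RU486 libraries had 4.79, 4.02, 3.46, 4.05 and 6.75 CPM, C108 libraries 3.23, 4.82, 4.59, 3.55 and 3.2 CPM and C118 libraries 4.15, 4.05, 7.05, 4.76 and 4.62 CPM. Vehicle libraries had 5.22, 4.87, 3.29 and 3.22 CPM, and none of these 4 groups was called. Nkx6-2 shares 12.9% of its exon bases with Inpp5a on the other strand, and the strand setting of the counting is not stated in the sources used here. Bcas1 (11.7%, with Bcas1os1), Olig1 (7.3%, Gm15966), Ermn (6.5%, Galnt5), Pdgfra (4.5%, Gm42802), Cnp (4.2%, Dnajc7), Gpr17 (3.6%, Lims2) and Tspan2 (1.9%, Tspan2os) also share exon bases with a gene on the other strand.

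Olig2, the factor that specifies the lineage, had 23.6, 19.9, 18.5, 24.1 and 22.9 CPM in Cort libraries and 25.1, 28.9, 21.9, 19.5 and 25.7 CPM in C108 libraries, against 26.3, 22.7, 24.9 and 23.5 CPM in Basal libraries. RU486 libraries had 26.1, 26.2, 25.5, 22.5 and 30.6 CPM, C118 libraries 25.9, 23.1, 28.8, 25.2 and 25.8 CPM and Vehicle libraries 29.2, 29.8, 19.5 and 24.6 CPM. All groups overlapped Basal, and the log2 fold change ranged from -0.16 in Cort to 0.10 in RU486. In Cort its 95% interval of -0.40 to 0.08 left out a fall as large as that of Sox10 (-1.06). The related factor Olig1 differed by -0.11 ± 0.13 in Cort, with a 95% interval of -0.37 to 0.16. Myrf averaged 56.3 ± 11.8 CPM in Cort and 54.8 ± 6.45 CPM in C108 (SD, n = 5 each), against 73.9 ± 7.4 CPM in Basal (SD, n = 4). All 5 C108 libraries were below the lowest Basal library for Myrf, but the difference of -0.43 ± 0.16 was not called (adjusted p = 0.108).

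Of the receptors and precursor or newly formed cell genes, 2 of 6 fell in Cort and 1 of 6 in C108, where 3.43% and 3.24% of all tested genes fell. Gpr37, an orphan receptor of oligodendrocytes that restrains their differentiation, had 79.5, 65.2, 70, 75.6 and 72.3 CPM in Cort libraries and 74.1, 86.2, 75.5, 67.5 and 74.8 CPM in C108 libraries, against 121, 93.6, 116 and 106 CPM in Basal libraries. Neither group overlapped Basal. Gpr37 differed on the log2 scale by -0.59 ± 0.11 in Cort (adjusted p = 0.000722) and -0.53 ± 0.11 in C108 (adjusted p = 0.00411), and both calls held without each library in turn. Vehicle libraries had 101, 86, 72.1 and 66.7 CPM, a difference of -0.42 ± 0.12 (adjusted p = 0.0313). The Vehicle call was lost without Basal 1, Basal 14, Basal 27, Vehicle 23 or Vehicle 29 (adjusted p from 0.0605 to 0.128). RU486 libraries had 89.5, 90.8, 70, 88.1 and 104 CPM and C118 libraries 96.1, 78.7, 93.6, 77.9 and 80.9 CPM, with differences of -0.30 ± 0.11 and -0.36 ± 0.11 that were not called (adjusted p = 0.0943 and 0.0613).

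Lpar1, a receptor for lysophosphatidic acid found on mature oligodendrocytes, had 31.2, 19.8, 22.3, 25.9 and 18.9 CPM in Cort libraries, against 43.4, 33.3, 35.4 and 35.1 CPM in Basal libraries. The groups did not overlap, and the log2 fold change was -0.64 ± 0.19 (adjusted p = 0.0377). The call was lost without Basal 1, Basal 14, Basal 27, Cort 11, Cort 17, Cort 30 or Cort 36 (adjusted p from 0.0526 to 0.154). C108 libraries had 23.8, 37.8, 23, 21.4 and 16.8 CPM, a difference of -0.59 ± 0.19 that was not called (adjusted p = 0.0593). RU486 libraries had 27.2, 32.1, 23.6, 32.4 and 37.8 CPM, C118 libraries 32.9, 30.8, 36.4, 24.5 and 20.6 CPM and Vehicle libraries 33.9, 32.5, 28 and 24.9 CPM.

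None of the other 4 genes of this role was called. Pdgfra, the receptor for platelet-derived growth factor, had 40, 41.6, 46.5, 48.8 and 42.3 CPM in Cort libraries and 45.4, 48.2, 42.7, 45 and 48.8 CPM in C108 libraries, against 50.2, 50.4, 47.3 and 52.4 CPM in Basal libraries. RU486 libraries had 46.4, 54.4, 42.2, 43.4 and 51.4 CPM, C118 libraries 44.6, 47, 55.4, 49.5 and 42.2 CPM and Vehicle libraries 51, 52.7, 42.4 and 66.4 CPM. Every group overlapped Basal, and the difference in Cort was -0.19 ± 0.10 with a 95% interval of -0.39 to 0.01. Cspg4, a proteoglycan of precursors that pericytes also carry, differed by -0.29 ± 0.12 in Cort (adjusted p = 0.185). Gpr17, a receptor of cells that are committed to differentiate, was the one member with a positive log2 fold change in Cort (0.20 ± 0.11) and C108 (0.23 ± 0.11). It was also positive in RU486 (0.32 ± 0.11, adjusted p = 0.0859), C118 and Vehicle, and was not called in the fit to all libraries. Bcas1, a marker of newly formed, myelinating cells, differed by -0.25 ± 0.19 in Cort and -0.37 ± 0.19 in C108 and was not called.

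Opalin, Gpr37 and Tmem88b kept their calls in Cort against Basal in all 19 alternative analyses that were run. Their promoter sequences are shown with that of Mobp, an abundant myelin gene that was not called. RefSeq promoters (GRCm38.p6, 250 bases before to 50 after the start, 5′ to 3′ on the strand of the gene) were matched by symbol for 22 of the 30 members, with 27 promoters among them. Capitals mark a Sox motif (ACAAAG or its reverse complement) or an E-box (CAGCTG). Opalin lies at chr19:41077064-41077363 on the minus strand, Gpr37 at chr6:25689931-25690230 on the minus strand, Tmem88b at chr4:155785825-155786124 on the minus strand and Mobp at chr9:120149492-120149791 on the plus strand.
Opalin: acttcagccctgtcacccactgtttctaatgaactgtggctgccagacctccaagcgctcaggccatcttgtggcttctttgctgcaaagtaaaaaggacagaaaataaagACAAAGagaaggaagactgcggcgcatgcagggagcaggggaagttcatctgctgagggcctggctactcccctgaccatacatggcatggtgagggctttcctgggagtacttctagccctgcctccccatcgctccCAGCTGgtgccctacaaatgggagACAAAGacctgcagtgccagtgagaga
Gpr37: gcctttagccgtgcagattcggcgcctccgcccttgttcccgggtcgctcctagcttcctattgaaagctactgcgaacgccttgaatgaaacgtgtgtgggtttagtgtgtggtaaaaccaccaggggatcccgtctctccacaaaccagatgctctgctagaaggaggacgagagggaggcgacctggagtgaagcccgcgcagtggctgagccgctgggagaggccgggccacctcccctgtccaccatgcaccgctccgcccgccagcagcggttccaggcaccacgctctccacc
Tmem88b: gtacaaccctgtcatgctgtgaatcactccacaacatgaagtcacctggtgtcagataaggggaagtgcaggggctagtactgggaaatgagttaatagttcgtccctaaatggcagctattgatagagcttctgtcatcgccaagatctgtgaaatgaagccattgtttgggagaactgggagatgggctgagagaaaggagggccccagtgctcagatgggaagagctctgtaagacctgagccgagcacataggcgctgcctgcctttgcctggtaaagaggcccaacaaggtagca
Mobp: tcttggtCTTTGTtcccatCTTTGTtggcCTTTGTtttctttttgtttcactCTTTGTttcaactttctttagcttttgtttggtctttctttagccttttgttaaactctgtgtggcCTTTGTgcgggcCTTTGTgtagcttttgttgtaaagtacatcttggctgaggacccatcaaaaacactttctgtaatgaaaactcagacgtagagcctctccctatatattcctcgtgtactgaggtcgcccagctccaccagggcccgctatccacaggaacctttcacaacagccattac

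Both strands were searched. The Sox motif ACAAAG was found in 8 of the 27 member promoters (29.6%), in the genes Cnp, Lpar1, Mag, Mobp, Opalin and Tspan2, and in 14% of the 15136 promoters of tested genes. The 8 include 2 overlapping windows of Mag that hold the same site. Counted by gene, it was found in 6 of 22 members and in 1948 of 11798 tested genes. Mobp held 6 copies and Opalin 2, whereas Gpr37 and Tmem88b held 0. The E-box CAGCTG, a palindrome bound by basic helix-loop-helix factors such as Olig2, was found in 3 of 27 (11.1%), in Aspa, Hapln2 and Opalin, and in 15.9% of promoters of tested genes. AGAACA, one arm of the element bound by the glucocorticoid receptor, was found in 1 of 27 (3.70%), in Tspan2, and in 12.7% of promoters of tested genes. The full palindrome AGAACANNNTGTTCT, which contains that arm on both strands, was found in 0 of 27 and in 0.00661% of promoters of tested genes. These matches describe the letters of the window and do not show binding.

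No member was called between a ligand and Vehicle, or between Cort and RU486. In Cort against Vehicle edgeR called 0 of 30, where 0.00598% of all tested genes were called, and DESeq2 and limma-voom also called 0. An unadjusted p under 0.05 was found for 9 of the 30 members and for 1947 of the 16735 tested genes. The log2 fold change was below 0 for all 30 members, with a median of -0.25. Members varied together between libraries, so these are not 30 independent results. The lowest p was that of Tmem88b, which averaged 48.1 ± 9.08 CPM in Cort (SD, n = 5) and 67.6 ± 14.7 CPM in Vehicle (SD, n = 4), a difference of -0.49 ± 0.17 (adjusted p = 0.254). For Opalin the difference was -0.36 ± 0.15 (adjusted p = 0.368, 95% interval -0.67 to -0.04). A larger number of calls in Cort than in Vehicle, each set against Basal, is therefore not a called difference between Cort and Vehicle.

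In C108 against Vehicle edgeR, DESeq2 and limma-voom each called 0 of 30, where 0.215% of all tested genes were called by edgeR (0.161% lower and 0.0538% higher). The members' median was -0.20. An unadjusted p under 0.05 was found for 4 of the 30 members and for 2917 of the 16735 tested genes, so the members' share was not above that of genes in general. In RU486 and in C118 against Vehicle the 3 tools also called 0 of 30, where 0% of all tested genes were called by edgeR. In each, 0 members had an unadjusted p under 0.05, where 1366 of the 16735 tested genes did in RU486 and 1340 in C118. Their medians were 0.06 in RU486 and 0.00 in C118. In Cort against RU486 the 3 tools called 0 of 30, where 0.0538% of all tested genes were called by edgeR (0.00598% lower and 0.0478% higher). There 15 of the 30 members and 894 of the 16735 tested genes had an unadjusted p under 0.05. Of the members, 29 of 30 had a negative log2 fold change, with a median of -0.29. Opalin averaged 16.7 ± 2.08 CPM in Cort and 24.9 ± 5.37 CPM in RU486 (SD, n = 5 each), a difference of -0.58 ± 0.14 (unadjusted p = 0.000413, adjusted p = 0.207, edgeR). Tmem88b averaged 48.1 ± 9.08 CPM in Cort and 70.1 ± 9.55 CPM in RU486 (SD, n = 5 each), a difference of -0.54 ± 0.16 (adjusted p = 0.429, edgeR). These 5 comparisons share libraries with each other and with those against Basal. Because members varied together between libraries, their counts of low unadjusted p and of shared direction are not counts of independent results. Set beside the share of all tested genes, they do not establish a difference. A test over all 6 groups called 5 members, Gjc3, Gpr37, Opalin, Sox10 and Tmem88b, where 4.73% of all tested genes were called. Over the 5 conditioned groups it called 0 of 30 by edgeR, DESeq2 and limma-voom, where 0.108% of all tested genes were called by edgeR. In that test 3 of the 30 members and 1427 of the 16735 tested genes had an unadjusted p under 0.05.

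**Figure D3:**
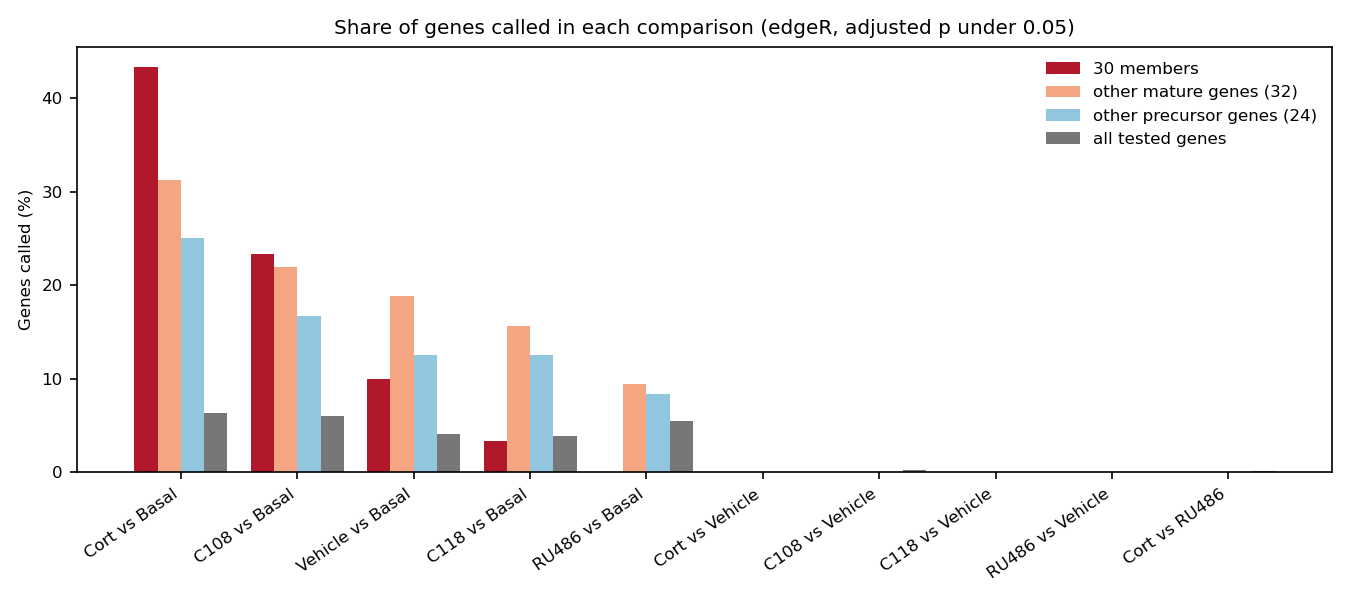
Percent of genes called (y axis, adjusted p under 0.05, edgeR) in each comparison (x axis) for the 30 members, for 2 lists of other oligodendrocyte genes and for all tested genes. The members' share is 43.3% in Cort and 23.3% in C108 against Basal, and 0% in every comparison that leaves out Basal.

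Members were also counted by whether the libraries of 2 groups overlapped, without a model. In Cort, 10 of 30 members had every library below every Basal library, where 5.35% of all tested genes did. In C108 there were 5 such members (Fa2h, Gpr37, Myrf, Opalin and Ppp1r14a), where 4.94% of all tested genes did. Vehicle had 4 (Enpp6, Gjc3, Opalin and Sox10, background 5.76%), C118 had 2 (Fa2h and Opalin, background 4.96%) and RU486 had 0 (background 6.07%). Against Vehicle, and in Cort against RU486, 0 members had groups that did not overlap in this direction, where 1.35% of all tested genes did in Cort, 0.98% in RU486, 1.32% in C108 and 0.735% in C118 against Vehicle, and 0.472% in Cort against RU486.

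Within groups, libraries differed for most members at once. Of the 30 members, Cort 4 had 22 above their mean over the 28 libraries, whereas Cort 11, Cort 17, Cort 30 and Cort 36 had 0, 0, 8 and 2. C108 21 had all 30 above their mean, and C108 8, C108 26, C108 34 and C108 39 had 3, 4, 2 and 3. In RU486 the number was 21, 22, 4, 24 and 29, in C118 it was 25, 21, 29, 7 and 8, in Vehicle 28, 28, 10 and 4, and in Basal 29, 25, 27 and 22. Basal was thus the one group in which every library had more than 20 members above their mean. The summed level of the members was 6169 CPM in Cort 4, against 3562 to 4486 CPM in the other Cort libraries, and 6089 CPM in C108 21, against 3152 to 4158 CPM in the other C108 libraries.

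The number of calls changed when single libraries were left out. Calls among all tested genes in the same fits are not given here, so these changes are not shown to be particular to the members. Without Cort 4 the number of members lower in Cort than in Basal was 15, and without Basal 1 or Basal 14 it was 6 or 7. In C108 against Basal it was 13 without C108 21, 2 without Basal 1 or Basal 14, 4 without C108 34 and 3 without C108 39. In Vehicle against Basal it was 0 without Basal 1, and 1 without Basal 14 or Vehicle 29. In RU486 against Basal it was 2 without Basal 9 and 1 without RU486 12 or RU486 32. In C118 against Basal it was 3 without Basal 9 and 2 without C118 7. In the test over all 6 groups it was 1 without Basal 1 or Basal 14, 3 without Basal 27 or Cort 30, 8 without Cort 4 and 10 without C108 21.

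**Figure D4:**
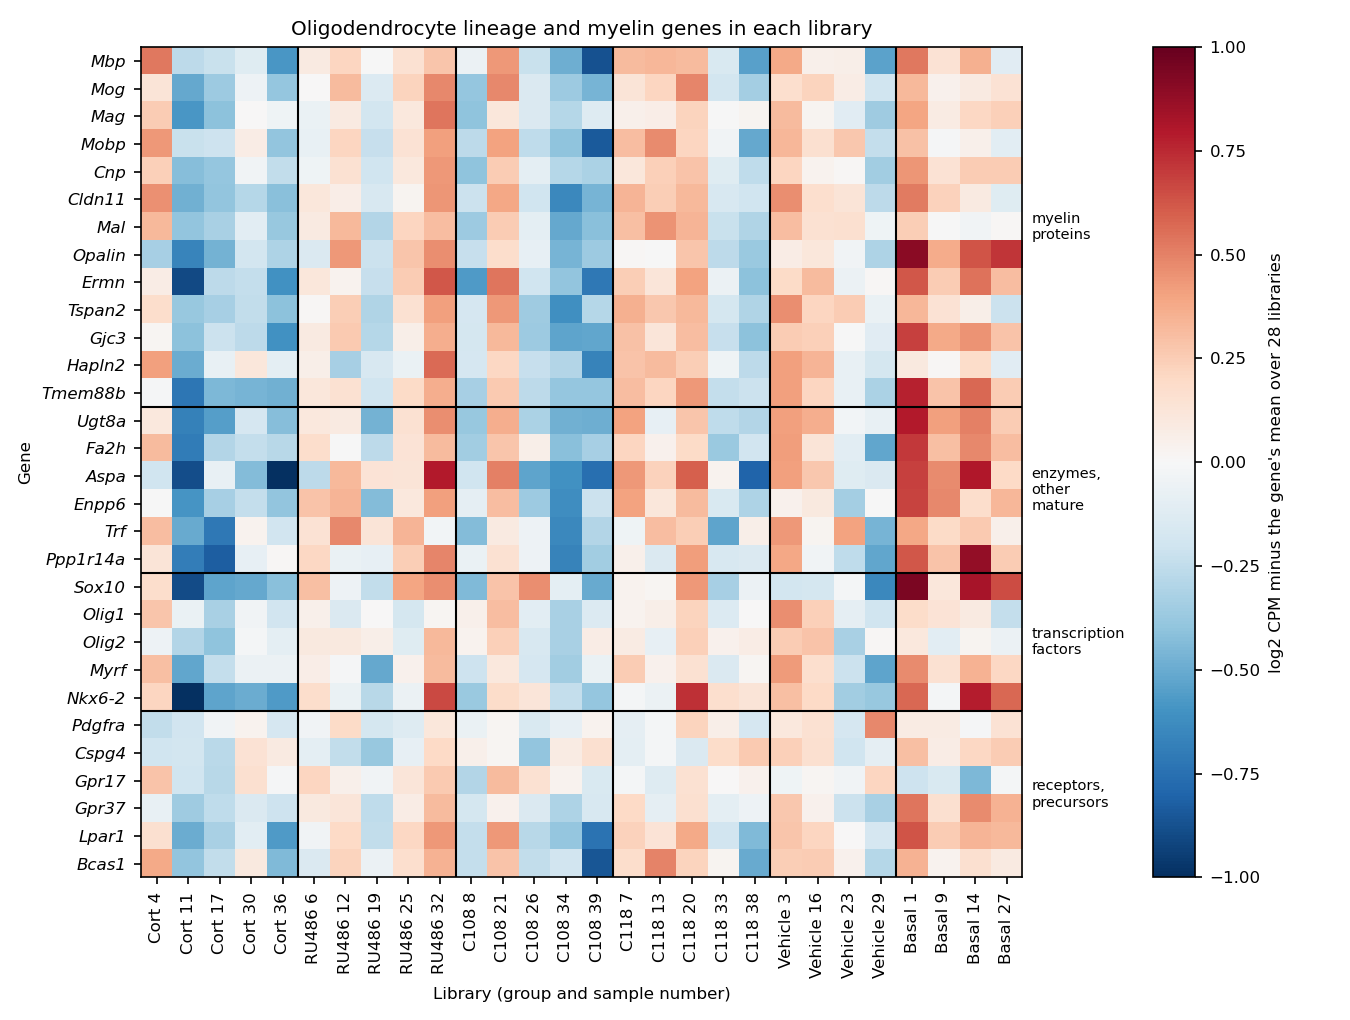
Log2 CPM of each member (y axis, grouped by role) in each library (x axis, grouped), minus the member's mean over 28 libraries; red is above and blue below that mean. Whole columns share a colour: Cort 11, Cort 17 and Cort 36 are blue, C108 21 is red unlike the other C108 libraries, and the Basal columns have 22 to 29 of 30 members above their mean.

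Markers of other cell types and regions were compared in the same libraries. A score was taken as the mean, over a list's genes, of log2 CPM minus the gene's mean over 28 libraries. The endothelial score ranged from -0.66 to 0.48 in Cort, from -0.32 to 0.38 in RU486, from -1.14 to 0.32 in C108, from -1.14 to 0.29 in C118, from -0.17 to 0.35 in Vehicle and from 0.27 to 0.75 in Basal libraries. The summed level of the 9 endothelial markers was 56.7 to 129 CPM in Cort and 39.9 to 117 CPM in C108, against 109 to 153 CPM in Basal. Of the 9, 2 were lower than in Basal in Cort, 1 in RU486, 4 in C108, 2 in C118 and 0 in Vehicle. None of the 9 was at 0 in any group. The score of 9 pericyte and smooth muscle markers was -0.48 to 0.42 in Cort and -0.79 to 0.15 in C108, against 0.09 to 0.74 in Basal, with summed levels of 61.1 to 113, 45 to 97.5 and 96.0 to 134 CPM, and the part of these cells in the results was not tested. The neocortex score, over 10 tested of 12 listed markers, was -0.30 to 0.02 in Cort and -0.14 to 0.13 in C108, against 0.29 to 0.43 in Basal. Of the 10, 3 were lower than in Basal in Cort, 3 in RU486, 2 in C108, 3 in C118 and 1 in Vehicle. These counts did not follow the number of members called. The thalamus score, over 14 tested of 15 listed markers, was -0.47 to 0.96 in Cort and -0.64 to -0.45 in C108, against -0.31 to 0.34 in Basal, with 0 of 14 called in either. In Vehicle it was -0.38 to 2.24, with 1 of 14 higher than in Basal, and Vehicle 16 stood apart with a thalamus score of 2.24 and a CA1 score of -0.81. In C108 against Vehicle all 14 thalamus markers had a negative log2 fold change and an unadjusted p under 0.05, and 3 were called. Vehicle 29 had a dentate gyrus score of -0.74. Without Vehicle 16 and Vehicle 29, edgeR again called 0 of the 30 members in each ligand against Vehicle. As 0 were called with all 4 Vehicle libraries and fewer were left, this outcome was likely in advance and does not show that these libraries are without effect.

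With both region scores (thalamus, neocortex) in the model, 3 members (Gpr37, Opalin and Tmem88b) stayed lower in Cort than in Basal, 3 (Gpr37, Opalin and Sox10) in Vehicle, and 0 in C108 or C118. With the endothelial score as a covariate, an analysis added after the scores were seen, 4 members (Gpr37, Opalin, Sox10 and Tmem88b) stayed lower in Cort and 3 (Gpr37, Opalin and Sox10) in Vehicle, and 0 in C108 or C118. Calls among all tested genes with these covariates are not given here. A loss of calls is therefore not shown to be particular to the members. For Opalin the log2 fold change in C108 was -0.71 with the region scores (adjusted p = 0.0734) and -0.68 with the endothelial score (adjusted p = 0.0555), against -0.85 without them. For Sox10 in Cort it was -1.16 with the region scores (adjusted p = 0.0727), against -1.06 without them, so a lost call was not always a smaller difference. Astrocyte scores, over 12 markers, were -0.37 to 0.14 in Cort and -0.52 to 0.22 in C108, against -0.11 to 0.03 in Basal. Of the 12, 1 was higher than in Basal in each of the 5 groups and 1 was lower in Cort. The CA1 score, over 6 tested of 7 listed markers, was -0.29 to 0.09 in Cort and 0.01 to 0.34 in C108, against 0.09 to 0.40 in Basal, and 2 of 6 were lower than in Basal in each of the 5 groups. Of 10 microglial markers, 2 were lower in Cort, 1 in C108 and 0 in RU486, C118 and Vehicle. Of 9 dentate gyrus markers, 3 were lower in Vehicle, 3 in RU486, 2 in C118 and 0 in Cort and C108, and 1 was higher in each of Cort, RU486, C108 and C118. Among all tested genes, between 3.87% (C118) and 6.27% (Cort) were called against Basal. The part of these regions and cells in the results was not tested. Choroid plexus scores spread widely, from -1.26 to 2.42 in Cort, from -0.98 to 3.89 in RU486 and from -1.82 to 0.70 in Basal, and the part of this tissue in the results was not tested.

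**Figure D5:**
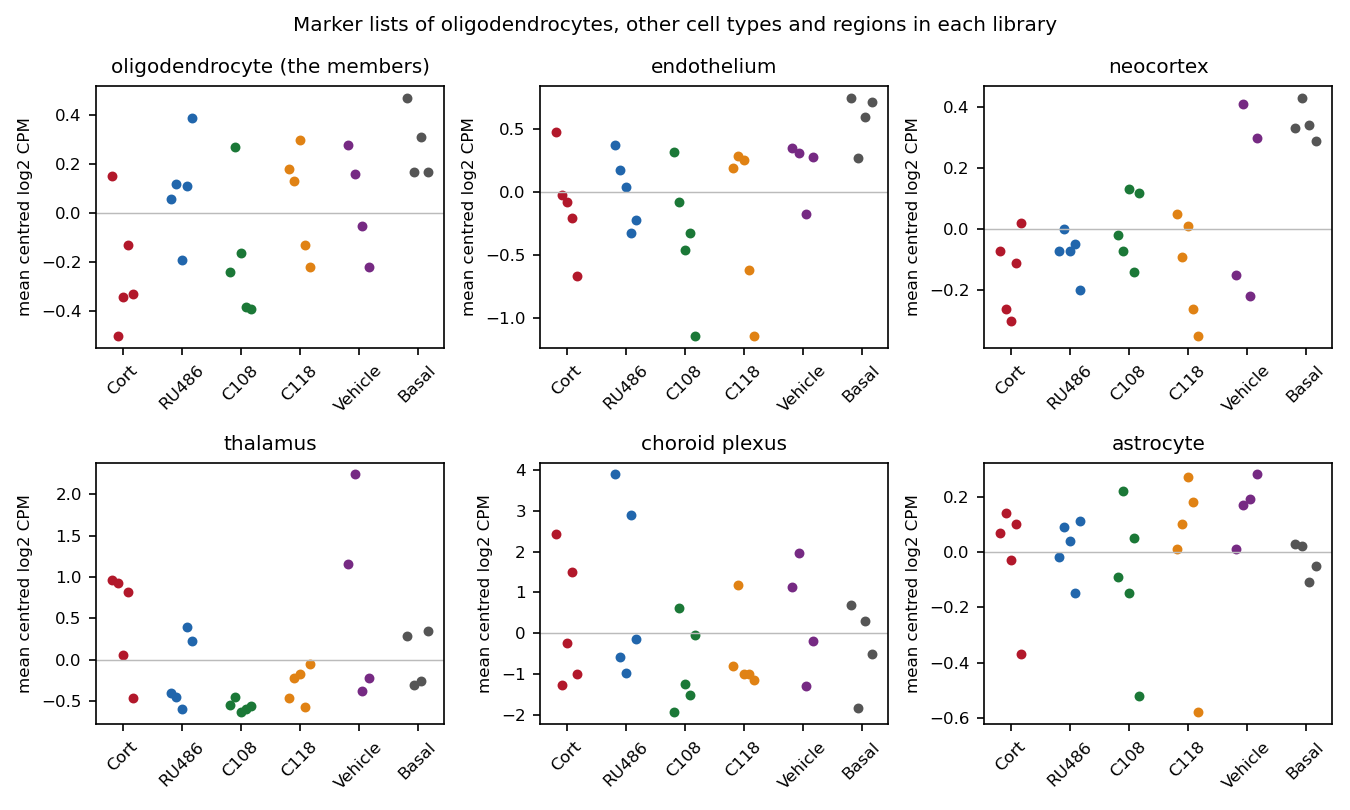
Score of 6 marker lists (panels) in each library (points) by group (x axis), as the mean over a list's genes of log2 CPM centred on 28 libraries (y axis, which differs between panels). Basal libraries lie between 0.17 and 0.47 for the members, 0.27 and 0.75 for endothelium and 0.29 and 0.43 for neocortex, above most libraries of the other groups.

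Other genes linked to the lineage, from lists that were drawn up with earlier results of these data known, were compared in the same fit. Among all tested genes, 3.43% fell in Cort, 2.84% in RU486, 3.24% in C108, 2.13% in C118 and 2.47% in Vehicle against Basal, which is the background for the counts that follow. Of 32 other genes of myelin and mature oligodendrocytes, 10 fell in Cort, 3 in RU486, 7 in C108, 5 in C118 and 6 in Vehicle against Basal, and 0 rose. Mcam, a cell adhesion gene that vascular cells also express, averaged 15.5 ± 3.06 CPM in Cort (SD, n = 5) and 31.5 ± 3.02 CPM in Basal (SD, n = 4), a log2 fold change of -1.02 ± 0.13 (adjusted p = 8.59e-06). Gjb1, a glial connexin gene, fell as well, with a log2 fold change of -1.25 ± 0.21 in Cort (adjusted p = 0.000241). Cdc42ep1, an effector of a small GTPase, averaged 6.5 ± 1.81 CPM in Cort and 16.5 ± 4.01 CPM in Basal, a log2 fold change of -1.34 ± 0.21 (adjusted p = 0.00015).

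Of 24 tested genes of precursors and newly formed oligodendrocytes outside the 30, 5 fell and 1 rose in Cort, and 2 fell in RU486, 4 in C108, 3 in C118 and 3 in Vehicle. The list as a whole did not share 1 direction. The log2 fold change was negative for 15 of 24 in Cort, with a median of -0.07, and for 13 of 24 in Vehicle, with a median of -0.04. The genes named next are among those that fell in Cort. Nkx2-2, a homeodomain factor of the lineage, averaged 1.17 ± 0.155 CPM in Cort and 2.89 ± 1.16 CPM in Basal, with a log2 fold change of -1.30 ± 0.26 (adjusted p = 0.00156). Sox6, which keeps precursors immature, had a log2 fold change of -0.58 ± 0.13 in Cort (adjusted p = 0.00614), and Chd7, a chromatin remodeller, one of -0.39 ± 0.11 (adjusted p = 0.0274).

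Of 16 genes of myelin lipid synthesis, 2 fell in Cort, 1 in RU486, 2 in C108, 1 in C118 and 1 in Vehicle against Basal, and 0 rose. Counts of 1 of 16 are near the background. Gal3st1, which makes sulfatide from the product of Ugt8a, averaged 4.85 ± 1.15 CPM in Cort and 8.83 ± 1.27 CPM in Basal, a log2 fold change of -0.86 ± 0.18 (adjusted p = 0.00291). Sqle, an enzyme of cholesterol synthesis, differed by -0.27 ± 0.08 (adjusted p = 0.0449). Of 18 growth factor receptors and inhibitors linked to the lineage, 6 fell in Cort, 3 in RU486, 4 in C108, 3 in C118 and 3 in Vehicle. This list is not particular to oligodendrocytes, and its gene Fgfr3 is also in the astrocyte list used here. In bulk tissue its falls cannot be assigned to the lineage. Erbb3, a neuregulin receptor, averaged 4.1 ± 1.09 CPM in Cort, 5.31 ± 1.44 in RU486, 4.72 ± 1.28 in C108 and 5.2 ± 1.68 in C118 (SD, n = 5 each), 4 ± 0.616 in Vehicle and 15 ± 3.08 in Basal (SD, n = 4 each). It was called in all 5 groups, with a log2 fold change of -1.87 ± 0.23 in Cort and -1.91 ± 0.25 in Vehicle, both larger in size than that of any of the 30 members. Fgfr2, a fibroblast growth factor receptor, also fell in all 5 groups, with a log2 fold change of -1.04 ± 0.15 in Cort (adjusted p = 7.27e-05) and -0.52 ± 0.15 in RU486 (adjusted p = 0.0455). In Cort against Vehicle edgeR, the tool run on these lists, called 0 genes of the 4 lists. There 2 of 32 mature, 6 of 24 precursor, 1 of 16 lipid synthesis and 3 of 18 receptor and inhibitor genes had an unadjusted p under 0.05. Among all 16735 tested genes 1947 did.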

How the data were processed

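RNA of 28 dorsal hippocampus libraries was counted per gene by the authors. The deposited values are raw read counts per Ensembl gene. HTSeq 0.6.1, FastQC, MultiQC and the build mm10 are named in the submitters' processing notes, and neither aligner nor gene annotation version is stated in the sources used here. 5 lines of the table that name no gene held 12.6% to 19.7% of reads and were left out. Genes with low counts were removed with filterByExpr (minimum count 10, minimum total 15). edgeR 4.0.16 (R 4.3.3) fitted group means to all 28 libraries with TMM factors and robust quasi-likelihood F tests, and p-values were Benjamini-Hochberg adjusted over 16735 genes at 0.05. SE was derived as |log2 fold change| over the root of the F statistic. DESeq2 1.42.0, limma 3.58.1 (voom), other scalings and filters, covariates and left-out libraries were alternatives. The 30 members and all lists were chosen with earlier results of these data known. Values by library are given for members called in any comparison with 2 groups, and for Mbp, Mog, Olig2 and Pdgfra. The fit was tested on simulated counts. Libraries held 16.2 to 20.3 M counts, and the member with the fewest, Nkx6-2, had 39 to 145 counts in a library, so counting error bears on such members. No 2 libraries of 1 group agreed within sampling noise. Promoters came from RefSeq tables. Some genes named by the rule are not reported here.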

Additional observations from a re-analysis of the deposited data

Results flagged for a closer look

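Of 186 sets of libraries checked, each a member or the mean over the members in 1 group, 7 held a library far from the others of its group. Chance marks about 5% of such sets, so the number flagged was not above what chance would mark. Within C108, the library C108 21 stood above the others for Mog (131 CPM, against 67.6 to 84.6), Tmem88b (76.5 CPM, against 48.8 to 53.4) and Ugt8a (82.2 CPM, against 45.4 to 51.3). Within Cort, the library Cort 4 stood above the others for Cldn11 (234 CPM, against 122 to 140) and Tspan2 (199 CPM, against 133 to 149). Within C118, the library C118 20 was at 7.05 CPM for Nkx6-2, against 4.05 to 4.76. Within Basal, the library Basal 1 was at 409 CPM for Mal, against 338 to 349.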

How the results depend on the processing

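Each difference of a member called in a comparison of 2 groups was recomputed under alternatives, which gave 453 results. All kept their direction, 346 kept their call and 107 lost it. Because only called differences were recomputed, on largely the same libraries, their direction could hardly change and a call could only be kept or lost. With thalamus and neocortex scores as covariates the members called against Basal numbered 3 in Cort, 0 in C108 and 0 in C118, and 1 in the test over 6 groups. With the endothelial score these were 4, 0, 0 and 1. That covariate and the sample number, with which C108 had 3, were chosen after seeing the data. DESeq2 called 1 in RU486, 12 in C108, 3 in C118 and 11 over 6 groups, and limma-voom 1 in RU486 and 12 in C108. With no filter on low counts C108 had 4 and the 6-group test 2. Fitting only the groups compared gave 1 in RU486, Gpr17, which was higher there. Without Vehicle 16 and Vehicle 29, which made that group smaller, there were 0 in Vehicle, 2 in C118 and 3 over 6 groups. Leaving out 1 library at a time against Basal gave Cort 6 to 15 calls, C108 2 to 13, Vehicle 0 to 4, C118 1 to 3, RU486 0 to 2, and the 6-group test 1 to 10. It gave 0 to 0 in each comparison with Vehicle, in Cort against RU486 and over the 5 conditioned groups. The cause of these changes was not tested, and calls among all tested genes under these alternatives are not given here. No paired analysis was possible because sample numbers are unique, so groups share none. With 4 or 5 libraries a group, the spread between libraries limits what can be called.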
